A study of Mus musculus with 12 samples.

Results

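Of the 12246 genes that reached 1 RPKM, the reads of a gene scaled to its length in kilobases and to the read total of the column, in at least 2 columns of the deposited table, 86 lay at least 2-fold above their input level in the MIWI immunoprecipitate of both genotypes that keep a Miwi allele, and not in that of the one that lacks MIWI. The members were the genes whose log2(RPKM + 1) in the MIWI immunoprecipitate (IP) exceeded that of the input by at least 1, that is 2-fold, in Miwi ADH/- and in Miwi +/- cells, and exceeded it by less than 1 in Miwi -/- cells. Piwil1, the gene that encodes MIWI, met the same conditions and was left out. The table lists 20345 Ensembl gene IDs in all. The members were thus chosen by the IP and input columns of all 3 genotypes, and the IP-to-input values below describe that choice and are not tested.

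MIWI is a PIWI-clade Argonaute protein of the male germ line. It carries pachytene piRNAs, small RNAs that accumulate in meiotic spermatocytes and round spermatids, and it can cut long RNAs to which its piRNA pairs. Long RNAs known from earlier work to co-purify with PIWI proteins in testis include piRNA precursor transcripts and messenger RNAs of spermatid differentiation, and an RNA can be recovered through a piRNA, through the protein directly or through a partner in the same particle.

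The samples are labelled as late spermatocytes of mice that are Miwi ADH/-, Miwi +/- or Miwi -/-, each as MIWI IP and as input, with ribosomal RNA removed. All of these animals carry at least 1 Miwi null allele. In Miwi ADH/- the remaining allele is the ADH form, known from earlier work as a change in the catalytic site that abolishes cutting. Miwi +/- keeps a normal allele. In Miwi -/- the antibody has no MIWI to bind, so its IP is the background of the procedure. The labels give 2 samples for each of the 6 combinations, but the table has 1 column for each, without a replicate number. No difference below has a replicate check, no p-value is given, and the intervals cover the counting error of reads only. The labels used here state neither the animals' ages nor whether a column pools both samples.

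The table does not pair its IDs with gene names, and 0 of the IDs matched the reference gene table used here. The members are therefore described by gene length, level and read number, and functions, RNA classes, cell type markers other than Piwil1 and sequences are not given. At most 2 higher and 2 lower IDs are printed per comparison. Piwil1 itself, known through its ID, stood at 319.7 RPKM in the Miwi ADH/- IP, 198.8 in the Miwi +/- IP and 4.497 in the Miwi -/- IP. In the inputs it stood at 50.3 RPKM in Miwi ADH/-, 49.2 in Miwi +/- and 6.71 in Miwi -/-. Both its IP and its input were lowest in Miwi -/-, which follows the labelled genotypes.

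The read numbers behind the RPKM values were recovered from the values themselves, which for a given gene are multiples of what 1 read is worth in each column. The listed genes held 3706479 reads in the Miwi ADH/- IP, 1725558 in the Miwi +/- IP and 761525 in the Miwi -/- IP, and 2627634 to 3918947 in the inputs. The Miwi -/- IP was the shallowest column, with 18.3% of its reads in listed genes against 35.0% and 29.3% in the Miwi ADH/- and Miwi +/- IPs. Over all 12246 genes the median IP-minus-input difference was -0.41 in Miwi ADH/-, -0.77 in Miwi +/- and -1.37 in Miwi -/- on the log2 scale, so most genes lay below their input in every IP and furthest below it where MIWI was absent.

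In Miwi ADH/- cells the members had a median IP-minus-input difference of 1.43, with a range of 1.02 to 3.40, and in Miwi +/- cells one of 1.49, with a range of 1.01 to 3.93. At least 2-fold above input were 4.83% of all kept genes in Miwi ADH/- and 4.24% in Miwi +/-. All 86 members were so in both by the rule, and nothing is read from that. The 86 members are 0.702% of the kept genes. Most lay near the limit: the lower of both differences had a median of 1.23, was under 1.5 in 63 members and reached 2, a 4-fold difference, in 7.

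**Figure D1:**
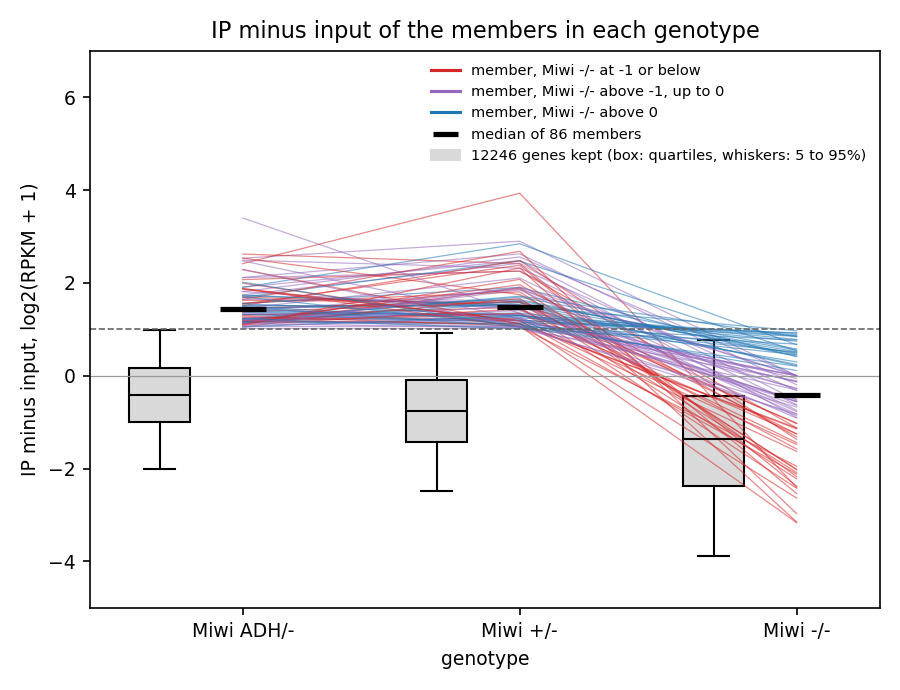
IP minus input on the log2(RPKM + 1) scale for Miwi ADH/-, Miwi +/- and Miwi -/-, 1 line per member, coloured by its Miwi -/- value. Black bars are the medians of the 86 members (1.43, 1.49 and -0.41), grey boxes show the 12246 kept genes with medians of -0.41, -0.77 and -1.37, and the dashed line marks the 2-fold limit of the rule, above which all lines lie in the first and second genotypes and none in the third.

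The member with the largest lower difference that rests on many reads was ENSMUSG00000074067, a gene of 2695 bases. It had 154.8 RPKM in the Miwi ADH/- IP against 24.3 in its input, and 130.6 RPKM in the Miwi +/- IP against 23.7 in its input. In Miwi -/- it had 2.76 RPKM in the IP against 18.5 in the input. The transcript was thus present in all 3 inputs, between 18.5 and 24.3 RPKM, and its lowest level was in the IP from cells without MIWI. The IP-to-input ratio was 6.36 in Miwi ADH/- (95% counting interval 5.71 to 7.10), 5.52 in Miwi +/- (4.99 to 6.10) and 0.149 in Miwi -/- (0.0995 to 0.215). The Miwi ADH/- IP rests on 4414 reads of this gene, the Miwi +/- IP on 2072 and the Miwi -/- IP on 31.

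The most abundant member by mean IP level was ENSMUSG00000040195, of 1882 bases. It had 387.3 RPKM in the Miwi ADH/- IP against 135.9 in its input, 274.6 in the Miwi +/- IP against 94.9 in its input, and 75.6 in the Miwi -/- IP against 92.15 in its input. Its ratios were 2.85 in Miwi ADH/- (2.69 to 3.02) and 2.89 in Miwi +/- (2.71 to 3.09), and 0.821 in Miwi -/- (0.743 to 0.906). Relative to the other genes of the Miwi -/- columns, whose median was -1.37, its Miwi -/- difference of -0.28 was high, and on that scale it lies beyond 2-fold in all 3 genotypes.

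The members with the largest differences on this scale also include very short genes with few reads. A gene of 79.0 bases had 4.79 RPKM in the Miwi ADH/- IP and 6.45 in the Miwi +/- IP and was without reads in the other 4 columns, but these values correspond to 4 and 3 reads. With values in 2 columns only, larger read numbers would fit this gene as well. Its length and its values below rest on the smallest ones. A gene of 131 bases had 4.33 RPKM, from 6 reads, in the Miwi ADH/- IP and 14.3, from 11 reads, in the Miwi +/- IP, with no reads in either input. With the input set at a floor of 3 reads, the gene of 131 bases lay 1.04-fold above input in Miwi ADH/- and 4.67-fold above it in Miwi +/-. The lower limits of its counting intervals were 0.611 and 3.19, so equality was excluded in Miwi +/- only. For the gene of 79.0 bases the floor allows no fold in Miwi ADH/- and gives 1.27-fold in Miwi +/-. Its lower limits were 0.342 and 0.526, so equality was excluded in neither genotype.

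Over all members, 78 had counting intervals of the IP-to-input ratio that excluded equality in both Miwi ADH/- and Miwi +/-, and 8 did not in at least 1 of them. In 55 members both inputs had at least 10 reads, and in 31 at least 1 input had fewer. Reads were absent from the Miwi +/- input in 13 members, and from the Miwi ADH/- input in 5 of the same 13. Read numbers are the smallest whole numbers that give the deposited values, and 2 members had values in only 2 columns, where larger read numbers cannot be told apart from them.

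The levels describe the members as chosen by the rule. Their median was 11.8 RPKM in the Miwi ADH/- IP against 3.87 in its input, 11.4 in the Miwi +/- IP against 3.52 in its input, and 2.38 in the Miwi -/- IP against 3.48 in its input. The kept genes as a whole had medians of 5.06 RPKM in the Miwi ADH/- IP against 6.90 in its input, 4.14 in the Miwi +/- IP against 7.37 in its input and 1.62 in the Miwi -/- IP against 6.58 in its input. The members' median was therefore below that of the kept genes in every input and above it in every IP, the Miwi -/- IP included. The rule favours a high IP and a low input in Miwi ADH/- and Miwi +/-, so these medians are not tested. Single members differed: in 39 the Miwi -/- IP was under 1 RPKM, which was not counted over the kept genes. Together they held 2.19% of the reads of kept genes in the Miwi ADH/- IP against 0.522% in its input, 2.26% in the Miwi +/- IP against 0.392% in its input, and 1.34% in the Miwi -/- IP against 0.505% in its input.

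**Figure D2:**
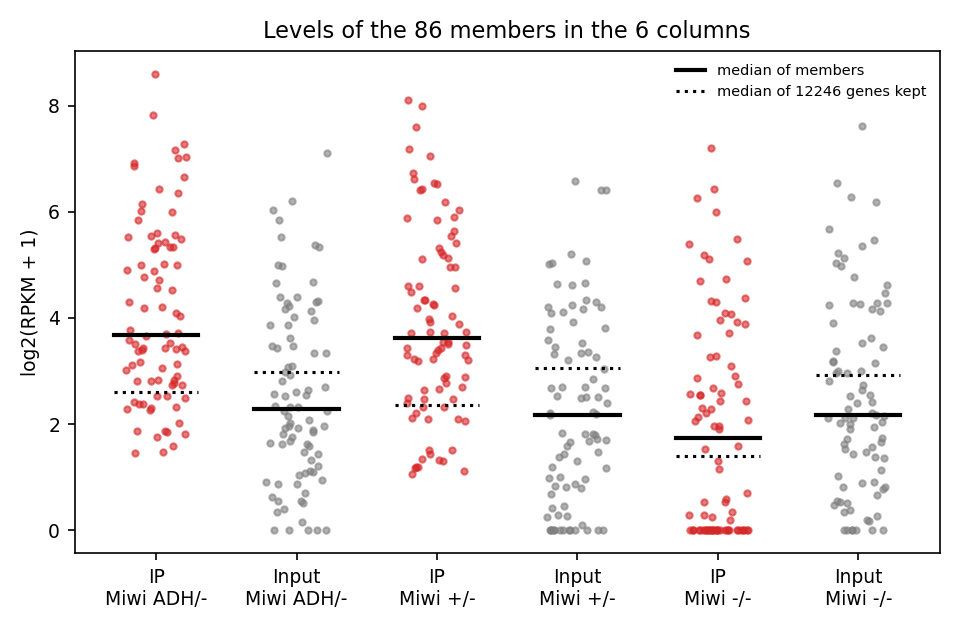
Level of each of the 86 members, log2(RPKM + 1), in the 6 columns, with IP in red and input in grey. Solid bars are the members' medians and dotted bars those of the 12246 kept genes. The members' median lies above the dotted bar in each IP and below it in each input, and 30 members are at 0 in the Miwi -/- IP.

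The Miwi -/- IP did not treat the members alike. Their median IP-minus-input difference there was -0.41, within a range of -3.16 to 0.97. By the rule 0 members were at least 2-fold above input there, against 3.67% of the kept genes. In 28 members (32.6%) the Miwi -/- IP was at least 2-fold below its input, against 60.9% of the kept genes. In 24 (27.9%, against 22.8% of the kept genes) it was below the input by less than 2-fold. In 7 (8.14%, against 3.35%) neither Miwi -/- column had reads. In 27 (31.4%, against 9.26%) the Miwi -/- IP lay above the input by less than 2-fold. Set against the kept genes' median of -1.37, 67 of the 86 members were above it and 19 below it. In 43 members the Miwi -/- difference exceeded that median by 2-fold or more, so that with each genotype centred on its own median these 43 would not count as enriched only where MIWI is present.

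**Figure D3:**
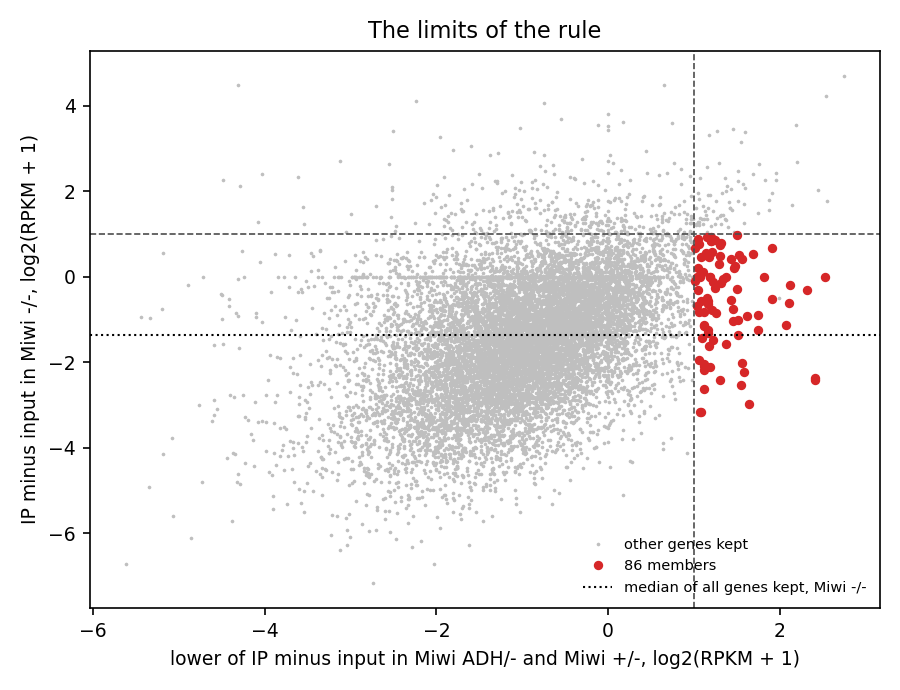
The lower of the Miwi ADH/- and Miwi +/- differences (x axis) against the Miwi -/- difference (y axis), each IP minus input on the log2(RPKM + 1) scale, for the members (red) and the other kept genes (grey). Dashed lines are the limits of the rule and the dotted line is the kept genes' median in Miwi -/-, -1.37. Of the 86 members, 67 lie above the dotted line, and they run without a gap up to the limit at 1.

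Members near the Miwi -/- limit differ little from genes just past it. The 3 members nearest to it had Miwi -/- differences of 0.97, 0.92 and 0.92, and the 3 nearest genes outside had 1.04, 1.05 and 1.16, with Miwi ADH/- and Miwi +/- differences of 1.15 to 1.56 in the genes outside and 1.15 to 1.51 in the members. At the Miwi ADH/- limit the nearest members had 1.02, 1.04 and 1.05 and the nearest genes outside had 0.98, 0.98 and 0.95. At the Miwi +/- limit these were 1.01, 1.02 and 1.03 for members and 0.99, 0.98 and 0.98 for genes outside.

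ENSMUSG00000032740, of 4424 bases, was the member nearest to the limit. It had 129.6 RPKM in the Miwi ADH/- IP against 44.8 in its input, 91.7 in the Miwi +/- IP against 31.8 in its input, and 85.1 in the Miwi -/- IP against 43.0 in its input. ENSMUSG00000038039, of 2660 bases, had 38.1 RPKM in the Miwi ADH/- IP, 39.1 in the Miwi +/- IP and 35.3 in the Miwi -/- IP, against 14.7, 17.1 and 18.2 RPKM in the inputs of these genotypes in the same order. Recovery of this gene was much the same in all 3 IPs. Its Miwi -/- ratio of 1.95 has a counting interval of 1.68 to 2.26, which takes in the 2-fold limit. In 19 of the 86 members the Miwi -/- ratio had a counting interval wholly above 1, and in 35 one wholly below 1. This was not counted over the kept genes, whose median Miwi -/- difference was -1.37.

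At the other end stood ENSMUSG00000082396, of 675 bases. It had 43.5 RPKM in the Miwi ADH/- IP against 19.97 in its input, 85.05 in the Miwi +/- IP against 16.2 in its input, and 3.20 in the Miwi -/- IP against 36.3 in its input. Its Miwi -/- IP was 11.4-fold below the input (5.85 to 25.3), from 9 reads. ENSMUSG00000044211, of 247.5 bases, had 17.6 RPKM in the Miwi ADH/- IP and 19.2 in the Miwi +/- IP, and no read in the Miwi -/- IP, against 6.63, 8.63 and 7.96 RPKM in the inputs of these genotypes in the same order. With its Miwi -/- IP set at a floor of 3 reads, it would lie 2.74-fold below the input, a value without the counting error of the input reads.

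In 30 members (34.9%, against 23.7% of the kept genes) the Miwi -/- IP had no read at all. The same held for 33.8% of the genes enriched in Miwi ADH/- only and 50.2% of those in Miwi +/- only. The rule sets an upper limit on the Miwi -/- difference, which an IP without reads always meets. In these 30 members the Miwi ADH/- IP ranged from 1.73 to 29.0 RPKM and the Miwi +/- IP from 1.10 to 22.6 RPKM. Their Miwi -/- input had a median of 4.5 reads and at most 56. Only for 13 of the 30 did a floor of 3 IP reads still place the Miwi -/- IP at or below its input. For 51 of the 86 members the counting interval of the Miwi -/- ratio lay wholly under 2-fold. For the other 35 it reached 2-fold or, without reads in either column, had no value. These intervals are on the plain ratio, while the limit of the rule is on log2(RPKM + 1). At low levels they therefore do not tell on which side of that limit a member falls.

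Setting the genotypes against each other, the IP enrichment of Miwi ADH/- over Miwi -/-, that is the difference of their IP-minus-input values, had a median of 1.91 over the members, against 1.06 over the kept genes, and was at least 2-fold higher in 70 members (81.4%, against 51.9% of the kept genes). That of Miwi +/- over Miwi -/- had a median of 2.01 over the members, against 0.67 over the kept genes, and was at least 2-fold higher in 69 (80.2%, against 39.3%). The rule fixes the direction in all 86 members, so these shares are a description. Both comparisons use the same Miwi -/- columns. In 66 members (76.7%, against 33.2% of the kept genes) both enrichments were at least 2-fold. In 63 members both had a counting interval of the ratio of ratios above 1, which was not counted over the kept genes.

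The IP columns can also be set against each other without the inputs. The Miwi ADH/- IP exceeded the Miwi -/- IP at least 2-fold in 65 members (75.6%), against 51.8% of the kept genes, and the Miwi +/- IP exceeded it in 65 (75.6%), against 42.1%. In 4 members the Miwi -/- IP was above the Miwi ADH/- IP, and in 3 it was above the Miwi +/- IP. ENSMUSG00000027973, of 1928 bases and with the second highest mean IP level, differed between the genotypes in IP and in input. It had 225.7 RPKM in the Miwi ADH/- IP, 252.6 in the Miwi +/- IP and 41.3 in the Miwi -/- IP, against 72.6, 83.9 and 195.9 RPKM in the inputs of these genotypes in the same order. Its Miwi ADH/- IP was 5.47-fold above the Miwi -/- IP (4.89 to 6.13). Its Miwi -/- input was 2.70-fold above the Miwi ADH/- input (2.49 to 2.93) and 2.34-fold above the Miwi +/- input (2.18 to 2.502).

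The rule required at least 2-fold in both the catalytic mutant and the heterozygote, so what follows on the distance between them is a description and does not show that they recover these RNAs alike. The difference between IP enrichment in Miwi ADH/- and in Miwi +/- had a median of -0.02 over the members, against 0.38 over the kept genes. In 79 of the 86 members it was under 2-fold either way. It was at least 2-fold higher in 4 members (4.65%, against 20.5% of the kept genes) and at least 2-fold lower in 3 (3.49%, against 7.56%). Members with a large difference between the genotypes were less likely to enter. The counting interval of the ratio of ratios lay above 1 in 7 members and below 1 in 15, which was not counted over the kept genes. In the IP columns alone, Miwi ADH/- was at least 2-fold above Miwi +/- in 11 members (12.8%, against 18.0% of the kept genes) and at least 2-fold below it in 4 (4.65%, against 7.48%).

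ENSMUSG00000030041, of 1140 bases, was the furthest towards Miwi ADH/-. It had 31.4 RPKM in the Miwi ADH/- IP against 2.08 in its input, 13.7 in the Miwi +/- IP against 4.80 in its input, and 3.15 in the Miwi -/- IP against 3.33 in its input. The IP-to-input ratio was 15.1 in Miwi ADH/- (8.74 to 28.7) and 2.86 in Miwi +/- (1.96 to 4.23), and the first rests on 13 input reads. ENSMUSG00000031174, of 2664 bases, came next, with ratios of 6.499 in Miwi ADH/- (5.09 to 8.41) and 2.63 in Miwi +/- (2.04 to 3.41). In the opposite direction, apart from the gene of 131 bases above, ENSMUSG00000082396 had ratios of 2.18 in Miwi ADH/- (1.69 to 2.85) and 5.24 in Miwi +/- (4.11 to 6.76).

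The inputs show how the members' RNA differed in the starting material. A smaller number of cells that make a transcript and less of it per cell cannot be told apart in these bulk columns. The labels' protocols name both testes and sorted cells as sources and do not say which sample is which, and a part of cell mixture in these differences was not tested. In 51 members (59.3%, against 70.4% of the kept genes) the 3 inputs lay within 2-fold of each other. The Miwi ADH/- input was at least 2-fold above the Miwi +/- input in 14 members (16.3%, against 7.80% of the kept genes) and at least 2-fold below it in 3 (3.49%, against 7.42%). The Miwi -/- input was at least 2-fold above the Miwi +/- input in 16 members (18.6%, against 4.47%) and at least 2-fold below it in 5 (5.81%, against 10.6%). Between the mutants, the Miwi ADH/- input was at least 2-fold above the Miwi -/- input in 11 members (12.8%, against 12.6%) and at least 2-fold below it in 7 (8.14%, against 6.54%). In 2 members (2.33%, against 1.90%) the Miwi ADH/- input was at least 2-fold above and the Miwi -/- input at least 2-fold below that of Miwi +/-. The Miwi +/- input is the common side of the comparisons with Miwi +/- and also enters the rule, where a low value helps a gene to become a member, so these excesses are described and not tested.

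**Figure D4:**
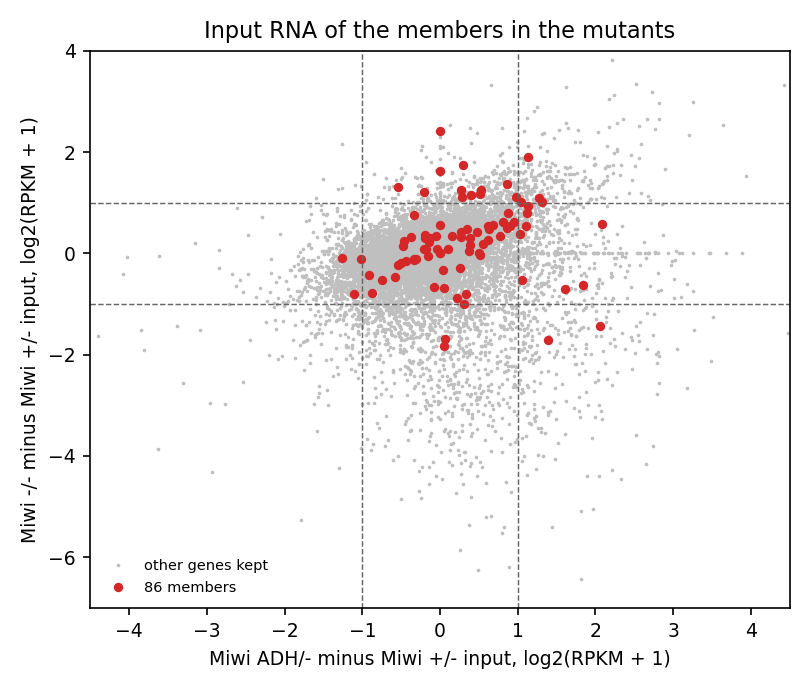
Input RNA of the members (red) and the other kept genes (grey): Miwi ADH/- minus Miwi +/- (x axis) and Miwi -/- minus Miwi +/- (y axis), both on the log2(RPKM + 1) scale, with dashed lines at 2-fold. Both axes share the Miwi +/- input. Most members lie to the right of or above 0, 2 lie right of the upper and below the lower dashed line, and 6 kept genes that are no members fall outside the axes.

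Among members with higher Miwi ADH/- input, ENSMUSG00000025288, of 1426 bases, had 13.7 RPKM in the Miwi ADH/- input and 0.296 in the Miwi -/- input, against 2.53 in the Miwi +/- input. Its IP levels ran in the same order, at 39.4 RPKM in Miwi ADH/-, 9.17 in Miwi +/- and 0.504 in Miwi -/-, so the IP-to-input ratios of Miwi ADH/- and Miwi +/- were 2.88 (2.34 to 3.58) and 3.63 (2.31 to 5.85) while the levels were more than 4-fold apart. Its Miwi -/- ratio of 1.702 rests on 3 reads in each column and has an interval of 0.228 to 12.7, which leaves its place on either side of the 2-fold limit unsettled. ENSMUSG00000052403, of 730 bases, had 3.99 RPKM in the Miwi ADH/- input against 0.183 in the Miwi +/- input, where it rests on 1 read. At the low end, ENSMUSG00000087056, of 590 bases, had 0.926 RPKM in the Miwi ADH/- input against 3.62 in the Miwi +/- input, 3.91-fold lower (1.12 to 20.9), from 3 reads in the lower column.

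Among members with higher Miwi -/- input, ENSMUSG00000091706, of 1696 bases, had 5.645 RPKM in the Miwi -/- input against 0.787 in the Miwi +/- input, 7.17-fold higher (3.67 to 15.6). Its IPs differed less, with 11.6 RPKM in Miwi ADH/-, 8.91 in Miwi +/- and 8.62 in Miwi -/-. The Miwi ADH/- IP was 1.34-fold above the Miwi -/- IP (1.01 to 1.82). Its IP-to-input ratio was 1.53 in Miwi -/-, against 3.996 in Miwi ADH/- and 11.3 in Miwi +/- (5.88 to 24.4), the last from 10 input reads. The lower Miwi -/- ratio goes with a higher Miwi -/- input beside IPs that differed less. The members whose Miwi -/- input lay furthest below the Miwi +/- input on the log2(RPKM + 1) scale were ENSMUSG00000031174, at 0.581 RPKM in Miwi -/- against 4.61 in Miwi +/-, 7.93-fold lower (4.23 to 16.4), and ENSMUSG00000089730, of 532 bases, without reads in both Miwi -/- columns against 2.26 RPKM in the Miwi +/- input. ENSMUSG00000031174 had 0.450 RPKM in the Miwi -/- IP, from 5 reads, a ratio to its input of 0.774 (0.211 to 2.42). For both genes a low level in the Miwi -/- IP came with a low level in the Miwi -/- input.

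Gene length was not used by the rule. The members had a median length of 1700 bases (quartiles 1082 and 2729), 1.05 times the median of the kept genes, 1617 bases. By class, 4 members (4.65%, against 2.83% of the kept genes) were under 300 bases, 16 (18.6%, against 22.3%) had 300 to under 1000, 32 (37.2%, against 37.1%) had 1000 to under 2000, 25 (29.1%, against 29.4%) had 2000 to under 4000 and 9 (10.5%, against 8.27%) had 4000 and more. As a whole the members were thus distributed over length much like the table. The 73 genes at least 2-fold above input in all 3 genotypes had a median of 1923 bases, and the genes so in Miwi ADH/- only (373) and in Miwi +/- only (319) had medians of 1437 and 1244 bases.

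Within the members, length went with the Miwi -/- value. The 28 members whose Miwi -/- IP was at least 2-fold below its input had a median of 1250 bases, against 1537 for the kept genes with such a value. The 27 members whose Miwi -/- IP was above its input had a median of 2660 bases, none of them under 915, against 1860 for the kept genes with such a value. The 24 members in between had a median of 1786 bases, against 1935, and the 7 without Miwi -/- reads one of 539, against 739. Level did not follow the same order: the median Miwi ADH/- IP level was 13.3 RPKM in the first class, 9.58 in the class in between, 3.98 in the class without Miwi -/- reads and 22.7 in the class above input. Longer genes collect more reads at a given level, and a part of read number in this grouping was not tested.

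**Figure D5:**
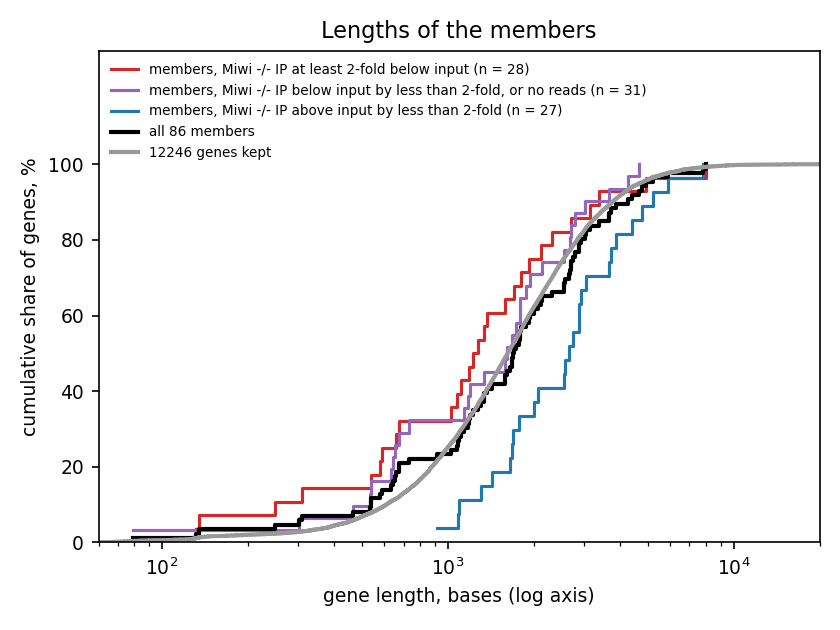
Cumulative share of genes (y axis, percent) by gene length in bases (x axis, log scale) for the 86 members (black), the 12246 kept genes (grey) and the members split by their Miwi -/- value (28 red, 31 purple, 27 blue). The black and grey curves run close together, with medians of 1700 and 1617 bases, and the blue curve, members whose Miwi -/- IP lay above its input, lies to the right with a median of 2660 bases.

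The best covered members can be listed apart, without adding independent support, since their intervals come from the columns that chose them. At least 10 reads in both inputs and both ratio-of-ratios intervals against Miwi -/- above 1 were met by 47 members. Their median IP-minus-input difference was 1.45 in Miwi ADH/-, 1.503 in Miwi +/- and -0.32 in Miwi -/-, where it ranged from -3.15 to 0.97 and was below 0 in 29 of the 47. Their median length was 2664 bases, which the demand on reads raises. They include members with a high Miwi -/- IP level: the highest of the 47 was 145.7 RPKM.

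The members' median levels were lower than those of the genes enriched in every IP, and this was not tested. Those genes were chosen by a Miwi -/- IP above its input. The 73 genes enriched in all 3 genotypes had median levels of 38.8 RPKM in the Miwi ADH/- IP, 39.7 in the Miwi +/- IP and 48.9 in the Miwi -/- IP, and 10.03, 12.3 and 10.9 RPKM in the inputs of these genotypes in the same order. At least 10 reads in both the Miwi ADH/- and Miwi +/- inputs were found for 93.2% of these 73 genes, against 64.0% of the 86 members and 83.5% of the kept genes. The share was 63.5% for genes enriched in Miwi ADH/- only and 38.9% for those in Miwi +/- only. Their medians were 8.10 RPKM in the Miwi ADH/- IP for the first list and 4.76 in the Miwi +/- IP for the second. A level below that of the 73 genes was thus not particular to the members.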

How the data were processed

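RNA-seq of MIWI IP and input RNA was analysed from 1 deposited table with 1 column for each of 6 groups; 0 of its value columns were left unused. Per the file headers the values are RPKM as computed by the authors. The headers name the unit for the Miwi +/- columns only, and the other columns, whose values are multiples of the same step per gene, were taken as RPKM too. The tools TopHat and Bowtie and the genome build mm9 come from the submitters' processing notes; the sources used here name no counting tool or annotation.

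A gene was kept where 2 or more columns reached 1 RPKM, and differences of the deposited values were taken on log2(RPKM + 1), which understates changes of low genes. Reads per gene are the smallest whole numbers, within 0.002 reads plus 1e-07 of the read number, that give all of a gene's values. The read total that made gene lengths come out nearest to whole numbers, among totals that leave at most 100% of reads in listed genes, set the lengths in bases; another total would change all lengths by a common factor, but neither reads nor ratios. The recovery and the rule were run on simulated data with gene lengths in whole bases. No gene with few input reads was given an enrichment there, and all other genes were set at or below input. The run therefore does not cover the rule for members with few reads. Ratios have exact 95% intervals (Clopper-Pearson on the summed reads; for ratios of ratios, the conditional odds ratio), which compare these columns only, as PCR copies are not independent molecules. Python 3.11.15, NumPy 2.4.6 and SciPy 1.17.1 were used.

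The members and lists were chosen with earlier results of these data known. Named members had the 2 largest or smallest values of a comparison, or the highest IP level. Rules for non-coding members, gene families and cell type markers could not be applied without gene names, and sequences are not reported.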

Additional observations from a re-analysis of the deposited data

Results flagged for a closer look

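For 2 members the input differed from Miwi +/- by at least 2-fold in opposite directions in the mutants. The difference between the mutants was not tested, since each group has 1 column. They are 2.33% of the 86 members, against 1.90% of the kept genes. ENSMUSG00000089730 was 1.39 higher on the log2(RPKM + 1) scale in the Miwi ADH/- input than in the Miwi +/- input and stood at -1.70 in the Miwi -/- input. Its reads were 22 in the Miwi ADH/- input and 0 in the Miwi -/- input, against 9 in the Miwi +/- input. ENSMUSG00000025288 was 2.06 higher in the Miwi ADH/- input and stood at -1.44 in the Miwi -/- input, with 107 and 3 reads in these inputs, against 27 in the Miwi +/- input.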

How the results depend on the processing

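The number of members depends on the scale more than on the filter. It was 86 without a filter, 61 with at least 5 RPKM in 2 columns, 66 when both enrichments over Miwi -/- had to reach 2-fold and 78 when counting intervals had to exclude equality. It was 134 with a pseudocount of 0.5 and 186 with one of 0.1, 289 at 1.5-fold and 18 at 3-fold, and 52 when the Miwi -/- difference had to be below 0. Relative to the median of all kept genes it was 261, with 43 of the 86 among them; median-of-ratios scaling gave 189 with 53 of the 86, and equal column sums 321 with 57. Chosen after seeing the data, a Miwi -/- counting interval below 2-fold left 51 and at least 10 reads in both inputs left 55. The median length lay between 1506 and 2547 bases under these settings. Of the members, 14 had a higher and 3 a lower Miwi ADH/- input than Miwi +/- input by 2-fold. These counts were 20 and 5 with a pseudocount of 0.5, 24 and 6 with one of 0.1, and 20 and 1 relative to the median. For the Miwi -/- input the counts of 16 and 5 were 18 and 7 with a pseudocount of 0.5 and 26 and 10 with one of 0.1. Relative to the median they were 16 and 4. Relative to the median, 8 rather than 28 members had a Miwi -/- IP at least 2-fold below input. For the 17 members at the ends of the comparisons, all 170 alternative values in Miwi ADH/- and Miwi +/- stayed at least 2-fold above input under both other pseudocounts and the 3 scalings, but in Miwi -/- 9 of the 17 also reached 2-fold relative to the median, and 5 under each of the other scalings, so that they would leave the list; 0 did so under the other pseudocounts. The causes were not tested. No paired analysis was possible because the columns carry no replicate number and each group has 1 column, and leaving out replicates was not run for the same reason. In the Miwi -/- IP 30 members had no read, and how much of this is depth was not tested.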
